A study of Sus scrofa with 8 samples.

Results

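The genes described here are 10 contractile and calcium-handling genes of smooth muscle: ACTA2, ACTG2, MYH11, DES, TAGLN, CNN1, TPM2, MYLK, PLN and SLN. A gene was included when a probe of the array carried a RefSeq accession that maps to its symbol, and the probe with the highest mean log2 intensity over all arrays stood for it. Of the 10 genes, 7 had such a probe, out of 3216 symbols with a named probe in the series; ACTG2, MYH11 and TAGLN had none and are not analysed here. The 7 genes have 32 probes in all, every one well above background on all 8 arrays, so no gene was lost to a filter on dim probes. By this measure the 7 genes with a probe gave a signal in every sample, and the other 3 were not measured.

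The samples are pieces of jejunal wall, 2 cm long and cut from the middle of the jejunum of 25-day-old Duroc × Landrace piglets, with 1 piglet on each of the 8 arrays. In one group 4 suckling piglets stayed with the sow. In the other, 4 piglets had been weaned at 21 days, moved to nursery pens and fed a basal diet (digestible energy 14.48 MJ/kg, crude protein 20.50%) without restriction, which put them 4 days after weaning. Each group took 1 piglet from each of 4 litters, and the labels do not say which litter a replicate number stands for.

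Smooth muscle contracts when myosin filaments pull on actin filaments, a step that myosin light chain kinase triggers once calcium has entered the cytoplasm. In the gut wall the contractile cells form the circular and longitudinal layers that mix and move the contents, with thinner layers beneath the mucosa and around vessels. The small membrane proteins phospholamban and sarcolipin restrain the pump that returns calcium to the sarcoplasmic reticulum, and so shape relaxation.

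Because a whole segment was used, muscle, epithelium, immune cells, vessels and nerves are mixed in each sample, and fewer muscle cells cannot be told apart from less RNA per muscle cell. All 11 epithelium markers that were tested were well above background on all 8 arrays. The suckling arrays shared 1 slide and scan and the weaned arrays another, and in every value below the effects of slide and weaning cannot be told apart. Suckling replicate 1 was the dimmest array, with a 75th percentile of processed intensity of 245, where the others had 317 to 395. Levels below are log2 processed intensities minus that percentile of the array, so a level of 0 marks the percentile; levels of different probes are not compared.

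None of the 7 genes differed between weaned and suckling piglets past an adjusted p of 0.05 (limma, adjusted over all 30552 tested probes), where 0.177% of all tested probes did (54 probes), 0.173% being higher and 0.00327% lower in weaned piglets. At an unadjusted limma p under 0.05 there was 1 of the 7, SLN, against 12.3% of all tested probes. The median log2 difference of the 7 genes, weaned minus suckling, was 0.012, beside 0.039 over all tested probes. ACTA2, DES, TPM2 and MYLK had a higher mean in weaned piglets and CNN1, PLN and SLN a lower one; 54.9% of all tested probes had a higher weaned mean. The median standard deviation of the 7 genes was 0.53 in suckling and 0.76 in weaned piglets, against 0.33 and 0.25 over all tested probes (log2, n = 4 per group). These spreads rest on 1 array in each group. Without weaned replicate 2 the weaned value was 0.25, equal to the 0.25 of all tested probes over the same 3 arrays. Without suckling replicate 3 the suckling value was 0.27, against 0.34 of all tested probes. With any other array left out the values were 0.59 to 0.64 in suckling and 0.82 to 0.93 in weaned piglets. Weaned replicate 2 was the lowest and suckling replicate 3 the highest array for 5 of the 7 genes. Leaving out an extreme array lowers the spread of these genes more than that of all probes, so the comparison is no test.

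**Figure D1:**
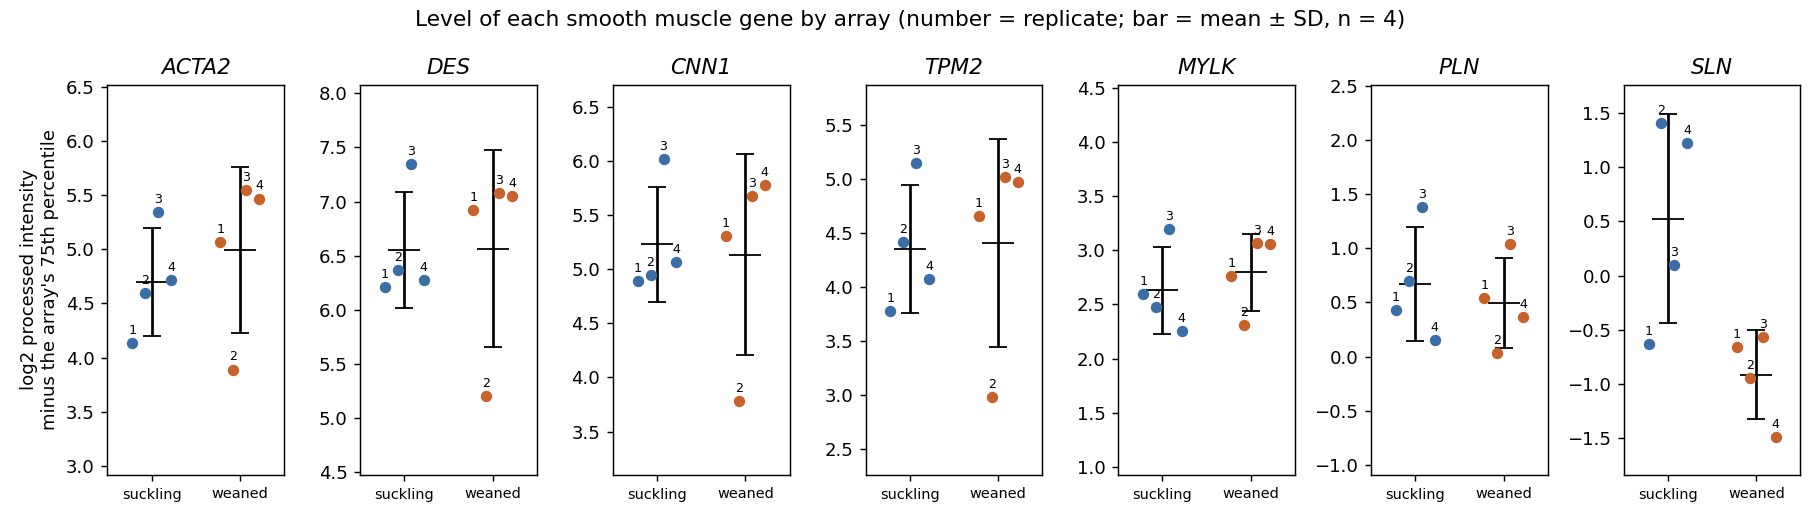
Level of each of the 7 smooth muscle genes on every array, as log2 processed intensity minus the array's 75th percentile, with suckling arrays in blue and weaned arrays in orange; the number at a point is the replicate and the bar is the mean ± SD (n = 4). Each panel spans the same number of log2 units; weaned replicate 2 is lowest for ACTA2, DES, CNN1, TPM2 and PLN, and SLN is high in suckling replicates 2 and 4.

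ACTA2 encodes the alpha actin of smooth muscle. Its levels were 4.13, 4.60, 5.34 and 4.72 in suckling replicates 1 to 4, and 5.06, 3.89, 5.54 and 5.47 in weaned replicates 1 to 4. Weaned replicate 2 was the lowest of the 8 and weaned replicate 3 the highest, and the groups overlapped. The weaned mean was 4.99 ± 0.76 and the suckling mean 4.70 ± 0.50 (SD, n = 4), which is higher by 0.29 on the log2 scale (SE 0.39; adjusted p = 0.797 by limma). In linear terms the 95% interval ran from 0.665-fold to 2.26-fold.

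TPM2, the beta tropomyosin that lies along the actin filament, had levels of 3.78, 4.42, 5.15 and 4.08 in the suckling arrays and 4.66, 2.98, 5.01 and 4.97 in the weaned ones. Here too weaned replicate 2 was lowest, and suckling replicate 3 was highest. The log2 difference was 0.051 (SE 0.47, limma adjusted p = 0.976), and the 95% interval ran from 0.492-fold to 2.18-fold.

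CNN1, calponin, binds actin and slows its sliding on myosin. Its levels were 4.89, 4.95, 6.02 and 5.06 in the suckling arrays and 5.30, 3.78, 5.67 and 5.78 in the weaned ones. The order resembled that of TPM2, with suckling replicate 3 at the top and weaned replicate 2 at the bottom. The log2 difference was -0.10 (SE 0.45, limma adjusted p = 0.948), within an interval from 0.462-fold to 1.90-fold.

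DES encodes desmin, the intermediate filament that ties the contractile apparatus to the cell membrane. Its levels were 6.22, 6.37, 7.35 and 6.27 in the suckling arrays and 6.92, 5.20, 7.08 and 7.05 in the weaned ones. The weaned group thus held 3 arrays above 3 of the suckling arrays, and 1 array below all of them. The group means were 6.55 ± 0.54 and 6.56 ± 0.91 (suckling and weaned, SD, n = 4), 0.012 apart on the log2 scale (SE 0.45; adjusted p = 0.994 by limma). Between the lowest and the highest of the 8 piglets, the brightest probe differed 4.42-fold for DES, 4.71-fold for CNN1, 4.48-fold for TPM2 and 3.15-fold for ACTA2. On the other probes the span was 4.68-fold to 5.95-fold for DES, 6.18-fold for CNN1 and 3.64-fold to 4.02-fold for TPM2. For ACTA2 it was only 1.54-fold to 1.79-fold.

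MYLK, the light chain kinase that starts contraction, spanned 1.92-fold between the extreme arrays on its brightest probe. That probe was at 2.59, 2.48, 3.20 and 2.26 in the suckling arrays and at 2.76, 2.31, 3.06 and 3.06 in the weaned ones. Suckling replicate 4 was lowest and suckling replicate 3 highest, so both extremes of this probe lay in 1 group. On the other MYLK probe, A_72_P505402, the span was 3.63-fold, with weaned replicate 2 lowest and weaned replicate 3 highest. The log2 difference was 0.17 (SE 0.25, limma adjusted p = 0.821), with a 95% interval from 0.759-fold to 1.66-fold.

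Leaving out single arrays shows how far the means rest on weaned replicate 2. Without it the log2 differences were 0.66 for ACTA2, 0.52 for TPM2, 0.46 for DES, 0.36 for CNN1 and 0.33 for MYLK, and the median of the 7 genes was 0.36. None of these differences passed (limma adjusted p = 0.565 to 0.760). Without suckling replicate 3, the highest array for 5 of the 7 genes, the median was 0.28. It was -0.14 without suckling replicate 1, -0.05 and -0.08 without suckling replicates 2 and 4, and -0.11, -0.16 and -0.14 without weaned replicates 1, 3 and 4. The direction of DES, TPM2 and CNN1 therefore turned with the array left out. That of DES and TPM2 also turned under quantile normalisation and in the deposited table, and that of DES under median scaling.

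Both inhibitors of the calcium pump were measured. PLN, phospholamban, was at 0.43, 0.70, 1.38 and 0.16 in the suckling arrays and at 0.54, 0.03, 1.04 and 0.36 in the weaned ones. Suckling replicate 3 was highest and weaned replicate 2 lowest, as for DES, CNN1 and TPM2, and the groups overlapped over most of their range. The log2 difference was -0.17 (SE 0.30, limma adjusted p = 0.851), with a 95% interval from 0.555-fold to 1.42-fold.

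SLN encodes sarcolipin, which acts on the same pump and is best known from striated muscle. Its levels were -0.63, 1.41, 0.10 and 1.23 in suckling replicates 1 to 4, and -0.66, -0.94, -0.56 and -1.49 in weaned replicates 1 to 4. Suckling replicates 2 and 4 were the highest of the 8 and weaned replicate 4 the lowest. Suckling replicate 1 lay inside the weaned range, so the groups overlapped by that array. Suckling piglets had a mean of 0.52 ± 0.97 and weaned piglets one of -0.91 ± 0.41 (SD, n = 4). The weaned mean was 2.71-fold lower, a log2 difference of -1.44 (SE 0.44, unadjusted p = 0.0103 and adjusted p = 0.267 by limma), which did not pass over all tested probes.

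Without suckling replicate 1, the suckling array with the lowest SLN level, the SLN difference was -1.82 (SE 0.35) and passed (limma adjusted p = 0.0475). Leaving out the lowest array of the higher group widens the difference by itself. That array also stood apart in its epithelium marker score, the median of 11 markers each centred on its own mean. The score was -1.21, against -0.32 to 0.91 in the other arrays. Without that array 553 of the tested probes passed, beside 54 with all 8 arrays. The part of this array in the SLN value was not tested further. Leaving out any other array gave SLN differences from -1.58 to -1.14, none of which passed (limma adjusted p = 0.302 to 0.505). The smallest, -1.14 and -1.20, were those without suckling replicates 2 and 4, the highest arrays for SLN. Whether SLN differed between the groups in another way than the other 6 genes was not tested.

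**Figure D2:**
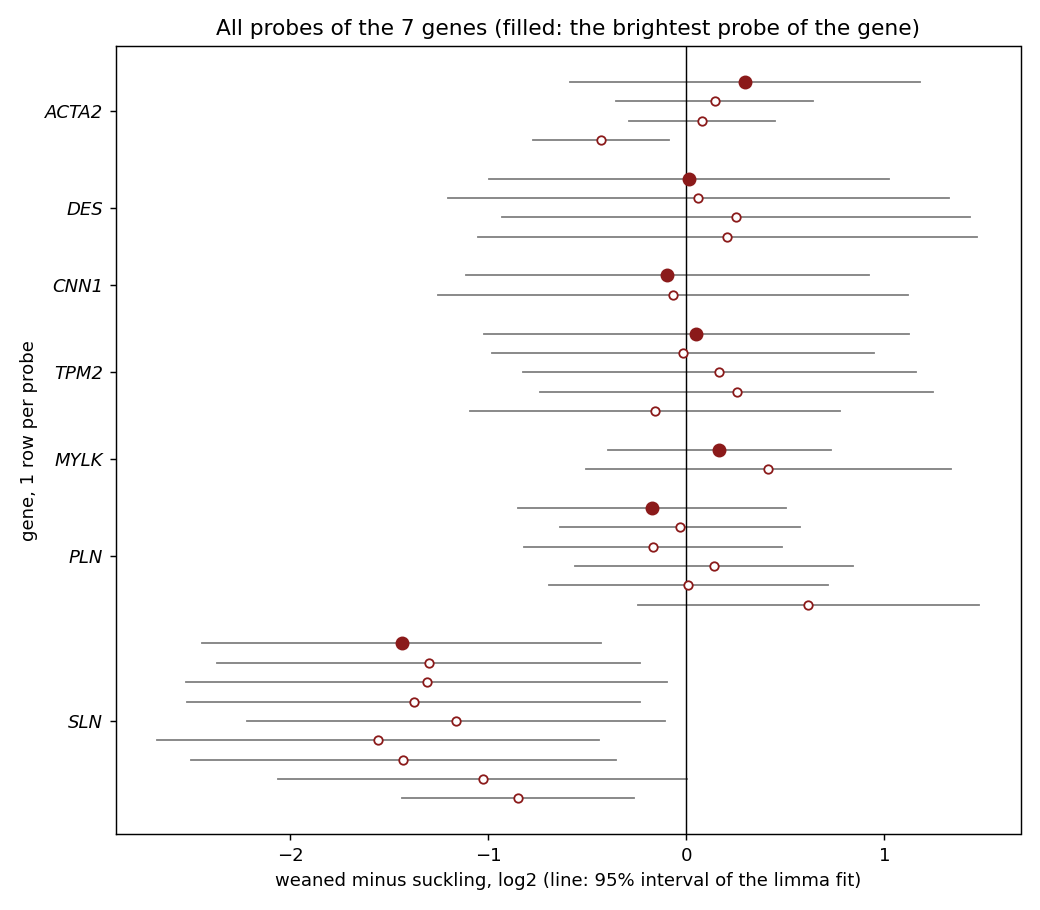
Weaned minus suckling log2 difference of all 32 probes of the 7 genes, 1 row per probe, with the brightest probe of each gene filled and the line giving the 95% interval of the limma fit. All 9 SLN probes lie below 0, from -1.56 to -0.85, while the probes of the other genes lie between -0.43 and 0.62.

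The other probes of a gene show whether the brightest one speaks for it. All 9 SLN probes had a lower mean in weaned piglets, with log2 differences from -1.56 to -0.85; 8 of them had an unadjusted limma p under 0.05 and none passed after adjustment (smallest adjusted p = 0.259). In all 9, suckling replicates 2 and 4 were the 2 highest arrays, and in 8 weaned replicate 4 was lowest. These probes read the same transcript in the same RNA and are no replicates of the comparison.

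In log2 difference the 4 DES probes ran from 0.012 to 0.25, the 2 CNN1 probes were -0.10 and -0.065, the 2 MYLK probes 0.17 and 0.41, and the 5 TPM2 probes ran from -0.16 to 0.25. Over the 8 arrays the other probes of these 4 genes correlated with the brightest at r = 0.909 to 0.992. The 6 PLN probes were split in direction, 3 higher and 3 lower, between -0.17 and 0.62, and the TPM2 probes 3 higher and 2 lower. The directions given for PLN and TPM2 are those of the brightest probe.

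ACTA2 was the gene whose probes differed most in pattern. Of the other probes, A_72_P521843 and A_72_P627171 followed the brightest at r = 0.862 and 0.584 over the 8 arrays. Probe A_72_P529904 did not (r = -0.12): it was at 1.81, 1.75, 1.64 and 1.75 in the suckling arrays and at 1.07, 1.24, 1.59 and 1.34 in the weaned ones. On that probe the groups did not overlap, as on 7.76% of all tested probes, and the log2 difference was -0.43 (SE 0.15, limma adjusted p = 0.314). Actin genes are close in sequence, and no probe sequences were used here, so which transcripts each probe binds was not tested. Weaned replicate 2 was the lowest array on 1 of the 4 ACTA2 probes and suckling replicate 3 the highest on 0. With the mean over all 4 probes the ACTA2 difference was 0.022.

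**Figure D3:**
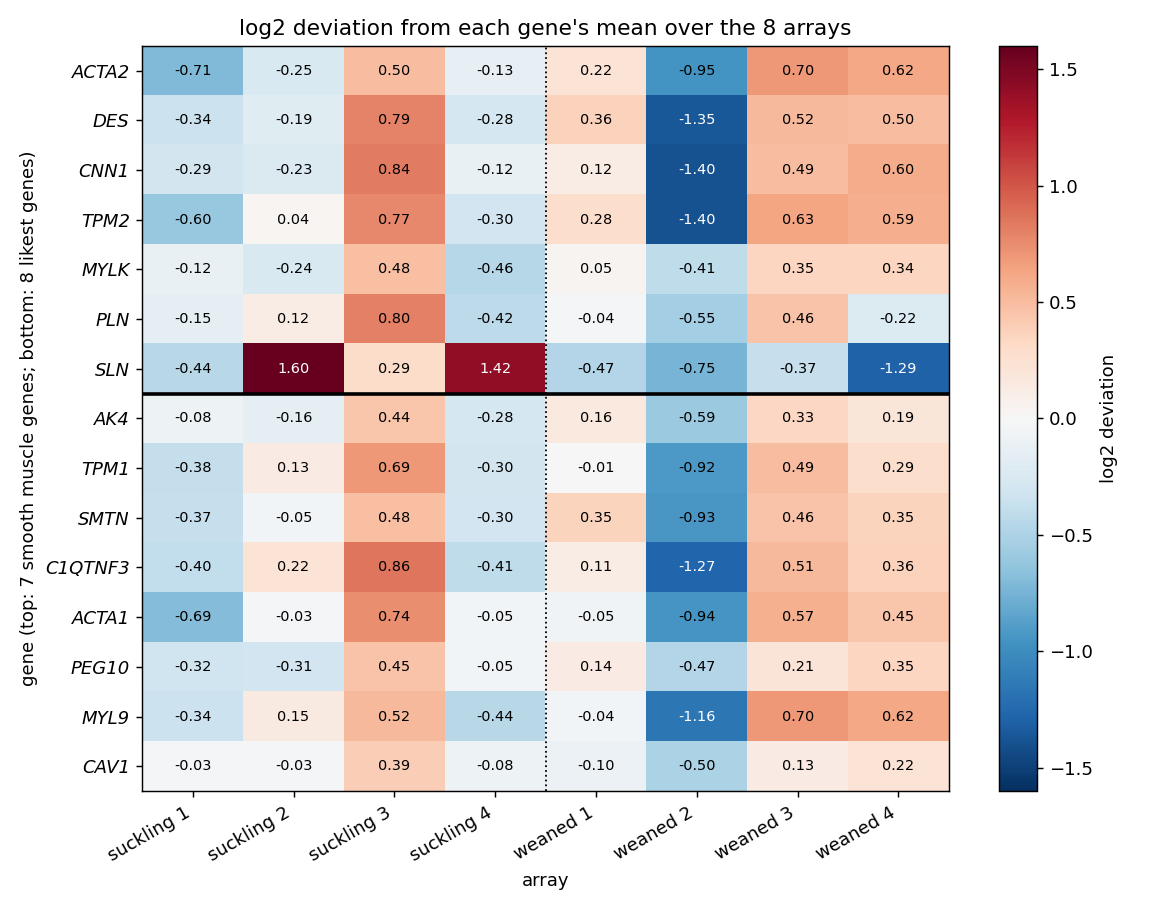
Deviation of each gene from its own mean over the 8 arrays (log2; red above, blue below), with the 7 smooth muscle genes above the black line and the 8 genes with the most similar pattern below it; columns are arrays. All rows except SLN are lowest or near lowest in weaned replicate 2 and high in suckling replicate 3 and weaned replicates 3 and 4 (PLN excepted in weaned replicate 4).

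On their brightest probes the filament genes and MYLK varied together from piglet to piglet. In weaned replicate 2 all 7 genes lay below their own mean, and 5 were at their lowest; in suckling replicate 3 all 7 lay above it, and 5 were at their highest. All 7 were also below their mean in suckling replicate 1. The deviation in weaned replicate 2 was -1.40 for TPM2 and CNN1, -1.35 for DES and -0.95 for ACTA2, but -0.41 for MYLK, -0.55 for PLN and -0.75 for SLN. Over all 23 probes of the 6 genes other than SLN, weaned replicate 2 was the lowest array on 16 and suckling replicate 3 the highest on 13.

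The correlations between pairs of these genes were added after the shared pattern had been seen, and describe it. Their p-values come from the same 8 arrays and are no independent test of that pattern. The split into 5 genes, PLN and SLN was not planned either. Across the 8 arrays DES and CNN1 correlated at r = 0.984 (exact permutation p = 0.000149, or 0.00122 after Benjamini-Hochberg adjustment over the 21 pairs of the 7 genes) and rho = 0.952 (exact permutation p = 0.00114, adjusted 0.00799). Without weaned replicate 2 and suckling replicate 3, the arrays farthest from the DES median, r was 0.936. The 10 pairs among ACTA2, DES, CNN1, TPM2 and MYLK had r from 0.829 to 0.984 and rho from 0.762 to 1. Without the 2 farthest arrays r was 0.877 to 0.996. In each pair the farthest arrays were set by 1 gene alone, the first in the order ACTA2, DES, CNN1, TPM2, MYLK, PLN and SLN. All 10 passed on r (exact permutation tests, largest adjusted p = 0.0338) and 8 of 10 on rho. PLN correlated with these 5 genes at r = 0.632 to 0.767 and rho = 0.548 to 0.786; 3 of the 5 pairs passed on r and none on rho, and r was 0.315 to 0.725 without the 2 farthest arrays. SLN correlated with the other 6 genes at r = -0.433 to 0.130 and rho = -0.167 to 0.452. No pair passed (exact permutation tests, adjusted p = 0.378 to 0.989 on r). Without the 2 arrays farthest from the median of the other gene, r was -0.855 to 0.254. The arrays left out differed between pairs, and suckling replicate 2, the highest for SLN, stayed in every pair. With each value taken as its deviation from its group mean, which removes group and slide, r was 0.818 to 0.988 for the 10 pairs, 0.723 to 0.861 for PLN with the 5 genes and -0.385 to 0.095 for SLN with the other 6. All values of an array are scaled by the same percentile.

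The member score, the median over the 7 genes of the deviation on an array, was -0.34, -0.19, 0.77 and -0.28 in the suckling arrays and 0.12, -0.95, 0.49 and 0.50 in the weaned ones. Suckling replicate 3 was thus the sole suckling array with a positive score, and weaned replicate 2 the sole weaned array with a negative one. The 8 named genes whose level followed this score most closely over the 8 arrays, out of 2766 compared, were AK4 (r = 0.970), TPM1 (0.963), SMTN (0.962), C1QTNF3 (0.955), ACTA1 (0.949), PEG10 (0.945), MYL9 (0.943) and CAV1 (0.938). TPM1 is a second tropomyosin, SMTN the smooth muscle protein smoothelin and MYL9 the regulatory myosin light chain that MYLK phosphorylates. CAV1 forms the membrane pits called caveolae, and AK4 is a mitochondrial adenylate kinase. Their log2 differences between the groups lay between -0.14 and 0.12, and none passed (limma adjusted p = 0.835 to 0.993). The median r over the 2766 genes was -0.034, and 30 of them, 1.08%, were above 0.8.

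MYL9, chosen above for its high r with the member score, illustrates the pattern in a gene outside the 7 and is no independent support for it. It was at 6.05, 6.54, 6.91 and 5.95 in the suckling arrays and at 6.35, 5.23, 7.09 and 7.02 in the weaned ones. As for DES, weaned replicate 2 was lowest and the other weaned arrays lay among the suckling arrays or above them (log2 difference 0.06, limma adjusted p = 0.966).

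Other genes of smooth muscle were read from 3 further lists, 1 probe per gene chosen in the same way. Of 54 other contractile and cytoskeletal genes, 18 had a named probe and 17 were tested; 9 had a higher and 8 a lower mean in weaned piglets, none passed, and the median log2 difference was 0.022. Of the 17, 5 had an r above 0.8 with the member score, beside 1.08% of the 2766 genes compared. They were TPM1, SMTN, MYL9, CAV1 and PDLIM3, a Z-disc linker. PDLIM3 (r = 0.934) is named after its value was seen. SGCD, a sarcoglycan that links the cytoskeleton to the matrix, had the smallest p and the largest difference of this list. It was -2.61 ± 0.33 in suckling and -3.18 ± 0.15 in weaned piglets (SD, n = 4), without overlap (limma adjusted p = 0.295). The groups did not overlap for 1 of the 17 genes, beside 7.76% of all tested probes.

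Among genes of calcium handling, contraction control and relaxation, 34 of 65 had a named probe and 28 were tested; 14 were higher and 14 lower, none passed, and the median was 0.0036. PPP1R14A, an inhibitor of myosin phosphatase, the muscarinic receptor CHRM2 and CASQ1, which binds calcium in the reticulum, were the 3 with an r above 0.8 with the member score (0.881, 0.830 and 0.815), and are named after these values were seen. These are 3 of the 28 genes, beside 1.08% of the 2766 genes compared. CHRM2 was well above background on 6 of the 8 arrays and CASQ1 on 5. The lowest CHRM2 levels, -5.76 and -5.68, were those of suckling replicate 1 and weaned replicate 2, which also had the lowest member scores. AGTR1, the angiotensin receptor of smooth muscle, had the smallest p and the largest difference of this list. It was at -0.84 ± 0.42 in suckling and -1.55 ± 0.36 in weaned piglets, and the groups overlapped (limma adjusted p = 0.322). At an unadjusted limma p under 0.05 there were 3 of the 28 genes, against 12.3% of all tested probes. ATP2A2, the pump on which PLN and SLN act, was at 3.53 ± 0.48 and 3.95 ± 0.49, 0.42 higher in weaned piglets (SE 0.31; adjusted p = 0.615 by limma). CHRM3, the muscarinic receptor through which acetylcholine contracts the gut, was at -1.92 ± 0.46 in suckling and -1.32 ± 0.08 in weaned piglets without overlap (limma adjusted p = 0.342). The groups did not overlap for 2 of the 28 genes, beside 7.76% of all tested probes. ATP2A2 and CHRM3 are given for their role and were singled out after their values were seen.

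Of 52 transcription factors and signals of the smooth muscle programme, 22 had a named probe and all 22 were tested; 9 were higher, 13 lower and none passed, with a median of -0.051. TEAD4, a partner of the YAP coactivator, had the smallest p, at -1.35 ± 0.17 in suckling and -2.03 ± 0.18 in weaned piglets (limma adjusted p = 0.167). CTGF, a growth factor of the matrix and a target of that pathway, had the largest difference, -1.02 (SE 0.26, limma adjusted p = 0.200). In both genes every weaned array lay below every suckling array. The groups did not overlap for 3 of the 22 genes of this list, beside 7.76% of all tested probes. MYOCD, myocardin, which switches on contractile genes together with SRF, was at -1.32 ± 0.52 and -0.76 ± 0.50 (limma adjusted p = 0.516) and is also named after its value was seen. No gene of this list had an r above 0.8 with the member score.

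**Figure D4:**
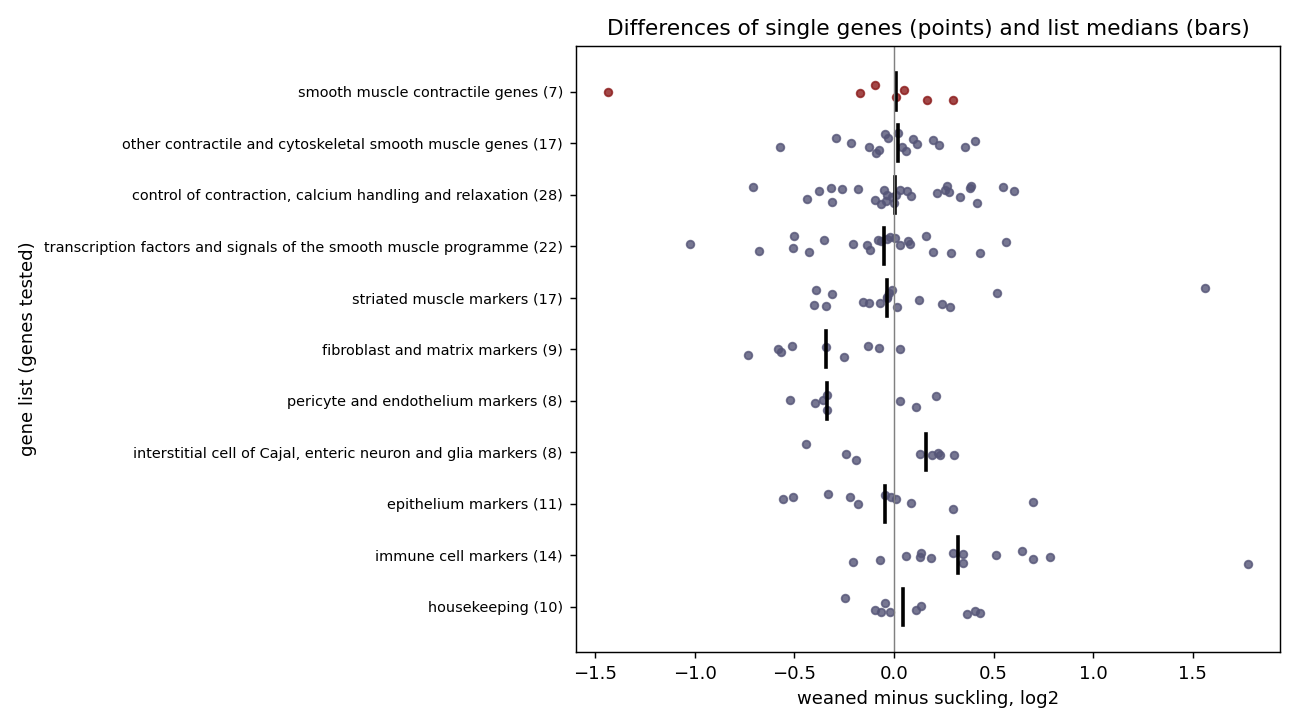
Weaned minus suckling log2 difference of single genes (points) in the 7 smooth muscle genes and in 10 further gene lists, with the median of each list as a black bar and the number of genes tested in brackets. The smooth muscle median is 0.012; the lowest list median is -0.34 and the highest 0.32, and no single gene plotted here passed the threshold.

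Markers of the other cells of the jejunal wall were read beside these genes. Their list scores, computed as for the smooth muscle genes, were -0.29 for fibroblasts and matrix, -0.081 for pericytes and endothelium, 0.067 for interstitial cells of Cajal, neurons and glia, -0.035 for epithelium and 0.46 for immune cells in weaned replicate 2, where the smooth muscle score was -0.95. In suckling replicate 3, where the smooth muscle score was 0.77, they were 0.41, 0.14, 0.056, 0.30 and -0.17 in the same order. The other contractile and cytoskeletal genes of smooth muscle had a list score of -0.21 in weaned replicate 2 and 0.23 in suckling replicate 3. Both were smaller in size than the fibroblast and matrix scores, though this list followed the member score at r = 0.906 over the 8 arrays. Contraction control genes scored -0.035 and -0.032, and the transcription factors and signals -0.070 and 0.14. No marker of fibroblasts, vessels, interstitial cells, neurons, glia, epithelium or immune cells had an r above 0.8 with the member score. The part of the other cells' markers in the smooth muscle values was not tested.

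Over the groups, 8 of 9 fibroblast and matrix markers had a lower mean in weaned piglets (median -0.34), with list scores from -0.14 to 0.41 in suckling and from -0.42 to 0.23 in weaned arrays. POSTN, a matrix protein, had the largest difference, -0.73 (SE 0.20, limma adjusted p = 0.225). Of 8 pericyte and endothelium markers 5 were lower (median -0.34), with scores from 0.00093 to 0.17 and from -0.20 to -0.041; CDH5, the vessel cadherin, had the smallest p (-0.40, limma adjusted p = 0.346) and ANGPT1, a vessel growth factor, the largest difference (-0.52, limma adjusted p = 0.353). Of 8 interstitial cell, neuron and glia markers 5 were higher (median 0.16), with scores from -0.37 to 0.23 and from -0.17 to 0.067; CHAT, which makes acetylcholine, had the smallest p and the largest difference (-0.44, limma adjusted p = 0.408).

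Epithelium markers had a median of -0.043, with 4 of 11 higher and scores from -1.21 to 0.91 in suckling and from -0.32 to 0.12 in weaned arrays; KRT8, a keratin, had the largest difference (0.70, limma adjusted p = 0.218). Immune markers had a median of 0.32, with 12 of 14 higher and scores from -0.53 to 0.058 and from -0.059 to 0.58; LYZ, lysozyme, had the largest difference (1.78, limma adjusted p = 0.297). Housekeeping genes had a median of 0.045, with 5 of 10 higher; YWHAZ had the largest difference (0.43, limma adjusted p = 0.466). The single mesothelium marker with a named probe was not tested, since it did not meet the filter on dim probes.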

How the data were processed

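Arrays were read by the submitters with Agilent Feature Extraction 10.7, per the submitters' processing notes. The deposited scanner files give a processed intensity for each spot, already background-subtracted by that software per the file headers. The deposited table of the series holds log2 values whose scaling by the authors is not given in the sources used here. Its median was 5.50 on every array, and its differences lay close to those under quantile normalisation (DES -0.037 and -0.035, TPM2 -0.014 and -0.012). These 2 alternatives are therefore not separate checks. Control spots were dropped and outlier-flagged spots set to missing. Log2 intensities were averaged per probe and the array's 75th percentile subtracted. A probe was tested when well above background on at least 4 arrays, with at least 3 values per group. RefSeq accessions were matched, without versions, to pig gene symbols. The comparison used limma 3.58.1 (R 4.3.3) with group as the sole term, two-sided, with Benjamini-Hochberg adjustment over 30552 probes and a threshold of 0.05; the code was tested on simulated data. The number of arrays limits the precision.

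Named genes are the 7 genes; from each further list the genes past the threshold or, with none, those with the smallest p and the largest difference; and the 8 genes with the highest r with the member score. Exceptions are marked in the text. A result that this rule names is not reported here. The genes, lists and tests were chosen with earlier results of these data known. Alternatives were quantile and median scaling, background correction by normexp (offset 50), other filters, flagged spots kept, the deposited table, the replicate number as a block, the mean over a gene's probes, and each array left out. The spread within a group was also computed with each array left out, an alternative chosen after seeing the data. Normexp used the median spot intensity, since no mean spot intensity was used here.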

Additional observations from a re-analysis of the deposited data

Results flagged for a closer look

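In 6 of 58 groups of 4 arrays, 1 array lay far from the other 3, measured as its gap to the nearest array divided by the group's range; about 1 in 20 groups does so by chance, and the genes in these groups vary together. Suckling replicate 3 was the high array for DES (0.864), CNN1 (0.847), CAV1 (0.891) and the member score (0.861). Weaned replicate 2 was the low array for DES (0.918) and SMTN (0.925).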

How the results depend on the processing

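The count of probes past the threshold was 54 and lay between 9 and 553 with single arrays left out (553 without suckling replicate 1); it was 0 under normexp and 0 with the replicate number as a block (limma, 251 and 4194 probes at an unadjusted p under 0.05). Of the 7 genes 0 passed, and between 0 and 1 with single arrays left out, SLN being the 1 without suckling replicate 1; the block changed no call among them. Deviations of same-numbered arrays correlated across probes at 0.368, 0.0077, 0.186 and -0.018, and the numbers coincide with the position on the slide, so they were not taken as pairs. SLN, ACTA2 and MYLK kept their direction under all 17 alternatives, with log2 differences from -1.82 to -1.02, from 0.022 to 0.66 and from 0.043 to 0.36. DES turned to -0.035 under quantile normalisation, -0.031 under median scaling and -0.037 in the deposited table. TPM2 turned to -0.012 under quantile normalisation and -0.014 in the deposited table. CNN1 turned to 0.15 under normexp, and PLN to 0.066 with the mean over its probes. With single arrays left out DES ranged from -0.16 to 0.46, TPM2 from -0.15 to 0.52, CNN1 from -0.31 to 0.36 and PLN from -0.35 to 0.067. The cause of these turns was not tested. All 32 probes were well above background on all 8 arrays.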

Other observations

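Markers of striated muscle were read in the same way. Of 40 listed genes 29 had a named probe and 17 were tested; 6 were higher and 11 lower in weaned piglets, none passed, and the median log2 difference was -0.036 (limma). Of the 17, 4 had an r above 0.8 with the member score, beside 1.08% of the 2766 genes compared. They were ACTA1 (0.949), CKM (0.931), ACTC1 (0.868) and CASQ1 (0.815). CKM, ACTC1 and CASQ1 are named after these values were seen, and CASQ1 was well above background on only 5 of the 8 arrays. CKM, the muscle creatine kinase, was at 1.86, 3.17, 3.85 and 2.01 in the suckling arrays and at 2.33, 0.39, 3.86 and 3.81 in the weaned ones. It spanned 11.1-fold between piglets, with its lowest value in weaned replicate 2, where DES and CNN1 were also lowest. ACTA1 and ACTC1 belong to the same actin family as ACTA2, and whether their probes bind more than 1 actin transcript was not tested.

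TNNC1, a troponin of slow and cardiac muscle, had both the smallest p and the largest difference of the list. Its mean was -5.54 ± 1.03 in suckling and -3.98 ± 0.40 in weaned arrays (SD, n = 4 each), without overlap (adjusted p = 0.252 by limma). In this list 1 of 17 genes had no overlap, beside 7.76% of all tested probes. TNNC1 was well above background in 3 of 4 suckling arrays and in all 4 weaned ones.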
